A study of Mus musculus with 36 samples.

Results

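The core machinery of chromosomal DNA replication was examined as 47 protein-coding mouse genes chosen by name for their textbook role, of 49671 genes counted. They comprise the origin recognition complex (Orc1 to Orc6), the licensing factors Cdc6, Cdt1 and geminin (Gmnn), the MCM2-7 helicase, the factors that turn the loaded helicase into an active one, fork protection proteins, primase and the replicative polymerases, the sliding clamp and its loader, replication protein A (RPA), Okazaki fragment processing enzymes and key enzymes of nucleotide supply. All 47 passed the filter on low counts.

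The genes were measured by strand-specific RNA sequencing in mouse embryonic stem cells of 3 lines, called Bod1L, Setd1a and Mll2 after the gene that is deleted in each. Bod1L and Setd1a encode subunits of one histone H3 lysine 4 methyltransferase complex, and Mll2 (Kmt2b) encodes the methyltransferase of another. Each line was sampled as knockout and as wild type in 3 media, with 2 libraries per group, which gives 18 groups and 36 libraries. The medium called 2i held LIF and the kinase inhibitors PD0325901 and CT99021, and its cells were labelled naive. The medium called FCS held LIF and fetal calf serum, with cells labelled cycling, and the medium called EpiSC held Activin A and FGF2, with cells labelled epiblast-like. The sample titles name tamoxifen for the knockout libraries and not for the wild-type libraries, so an effect of tamoxifen itself and of the deletion cannot be told apart within a line, although all 3 knockouts share the compound. The sources used here give neither the time between tamoxifen and harvest nor the promoter of the recombinase. The libraries of a group are labelled as biological replicates without naming cultures or clones, and p-values measure only the spread between these samples.

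Replication begins when the origin recognition complex binds DNA and, with Cdc6 and Cdt1, loads the MCM2-7 ring in an inactive form, a step that geminin blocks once S phase has started. Cdc45, the GINS proteins and Mcm10 then activate the ring, primase and polymerase alpha start the new strands, and polymerases delta and epsilon extend them, held on DNA by the PCNA clamp that replication factor C loads. Embryonic stem cells divide fast with a short G1 phase and spend much of their cycle in S phase, and many of these genes are controlled by E2F factors at the transition from G1 to S.

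Library totals ran from 24490158 to 40591108 counts assigned to genes, and the 47 genes together took between 0.348% and 0.889% of them. The lowest count of any of the 47 genes in any library was 267, so counting error was small beside the spread between replicates. Bod1l transcript was low in its knockout, at 33.6 to 62.2 CPM (counts scaled to a common library size, with TMM factors) against 166 to 345 in its wild type (log2 fold change -2.21, edgeR adjusted p = 1.83e-09). The other targeted transcripts changed less: Setd1a stood at 76.9% of wild type in its knockout (adjusted p = 0.0957) and Kmt2b at 82.5% (adjusted p = 0.744), and the knockout and wild-type ranges of both overlapped. Counts over a whole gene do not check a deletion of 1 exon, so for these 2 lines the genotype rests on the labels. The pluripotency factor Pou5f1 was present throughout, at 393 to 989 CPM in 2i, 396 to 989 CPM in FCS and 156 to 1544 CPM in EpiSC, and the epiblast marker Fgf5 was at 0.537 CPM or less in 2i and at 3.92 to 270.3 CPM in EpiSC. Of 6 fibroblast marker genes (Col1a1, Col1a2, Col3a1, Thy1, Postn and Lum), the summed level was 1.94 to 12.0 CPM in 2i, 14.3 to 250 CPM in FCS and 82.4 to 6636 CPM in EpiSC, where the Mll2 line had 82.4 to 153 CPM.

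Because the genes include origin recognition and clamp loader genes that moved in a knockout and others that did not, the sequence before the transcription start is shown for a few of each kind. RefSeq promoter windows on build GRCm38.p6, from 250 bases before to 50 after a start, were present for 38 of the 47 genes. They were searched on both strands for 4 octamers of the E2F type, TTTCCCGC, TTTCGCGC, TTTGCCGC and TTTGGCGC, whose matches can overlap. The sequences below are written 5′ to 3′ on the strand of the gene, end at or before its RefSeq start, leave out annotated untranslated regions beyond a 30-base stretch for Orc3, and carry the E2F-type letters in capitals. Orc5, Mcm10 and Rfc4, which fell in the Setd1a knockout in every fit with 1 library left out, held none in their windows.
Orc5 chr5:22550376-22550588 (- strand): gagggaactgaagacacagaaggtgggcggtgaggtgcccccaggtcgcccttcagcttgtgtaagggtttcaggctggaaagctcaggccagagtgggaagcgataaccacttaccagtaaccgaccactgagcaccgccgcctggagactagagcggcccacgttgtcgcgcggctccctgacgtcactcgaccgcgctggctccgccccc
Mcm10 chr2:5012792-5013041 (- strand): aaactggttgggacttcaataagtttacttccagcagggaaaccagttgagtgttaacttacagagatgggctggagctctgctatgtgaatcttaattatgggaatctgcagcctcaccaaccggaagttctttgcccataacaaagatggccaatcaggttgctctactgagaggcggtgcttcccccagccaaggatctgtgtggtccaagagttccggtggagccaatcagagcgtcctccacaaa
Rfc4 chr16:23127738-23127980 (- strand): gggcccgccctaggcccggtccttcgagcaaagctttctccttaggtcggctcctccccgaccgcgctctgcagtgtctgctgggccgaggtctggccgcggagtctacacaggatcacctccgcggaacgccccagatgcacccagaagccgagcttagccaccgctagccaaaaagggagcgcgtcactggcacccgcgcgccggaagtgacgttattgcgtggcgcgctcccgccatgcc
Orc3, which also fell there, held the letters near its start, and so did Orc1 and Mcm6, which did not pass the test there.
Orc3 chr4:34614965-34614994 (- strand): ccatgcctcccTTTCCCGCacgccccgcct
Orc1 chr4:108579337-108579453 (+ strand): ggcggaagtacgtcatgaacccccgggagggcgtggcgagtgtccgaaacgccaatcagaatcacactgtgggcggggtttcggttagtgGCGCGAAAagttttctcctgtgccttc
Mcm6 chr1:128359706-128359955 (- strand): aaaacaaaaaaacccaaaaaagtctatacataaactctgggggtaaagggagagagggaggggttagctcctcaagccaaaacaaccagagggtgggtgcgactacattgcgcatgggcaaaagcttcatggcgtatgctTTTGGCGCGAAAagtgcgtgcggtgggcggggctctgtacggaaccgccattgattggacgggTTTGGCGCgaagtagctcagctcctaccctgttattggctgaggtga
The E2F-type letters were found in a window of 14 of the 38 genes (36.8%), against 704 of 27025 genes with a RefSeq window (2.60%). The letters CCAAT stood in 23 of the 38 (60.5%) against 41.1% of all, and TTTGAA, the core of a cell-cycle element, in 5 (13.2%) against 20.2%. Of the 13 genes called lower in the Setd1a knockout, 10 had a window and 4 of these held E2F-type letters (Orc3, Cdc6, Mcm3 and Pold1), against 10 of the 28 genes with a window that were not called. A match is a description of the letters only.

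In wild-type cells every one of the 47 genes lay above the median of the genes tested. Levels between genes are compared as CPM per kilobase of exon, averaged over the 18 wild-type libraries, on which scale the 47 genes had a median of 25.7 against 2.27 over all genes tested. The highest were Rrm2, the small subunit of ribonucleotide reductase, at 118.5 ± 31.6 (SD, n = 18), and Pcna, the sliding clamp, at 117.5 ± 37.8. Mcm3 followed at 105.6 ± 26.9, Mcm5 at 100.8 and Mcm4 at 86.0. Rrm2 and Pcna did not differ beyond their spread, and reads of Pcna may be shared with its pseudogene copies Pcna-ps1 and Pcna-ps2. The 6 subunits of the MCM2-7 ring, which are needed in equal number, lay between 59.4 and 105.6. The origin recognition genes spanned 8.7 to 38.7. The lowest levels were those of Gins3 at 6.52 ± 1.76, Prim2, the large primase subunit, at 7.13 ± 1.58, Orc4 at 8.68 ± 1.61, Donson at 9.3 and Orc5 at 10.8.

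The question put to the knockouts is whether loss of each methyltransferase complex member alters the transcripts of the replication machinery. In the Setd1a knockout, averaged over the 3 media, 13 of the 47 genes fell and none rose, and 45 of 47 had a fold change below 0. In the Bod1L knockout 1 gene, Orc5, fell. In the Mll2 knockout no gene passed the test. The origin recognition subunit Orc5 was the gene that fell in 2 lines, to 28.7% of wild type without Setd1a and to 43.8% without Bod1L. In these bulk samples, fewer cells in S phase and less RNA of these genes per cell cannot be told apart.

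The background of these counts, in either direction over all 23501 genes tested, was 8.85% called in the Setd1a average, with 5.57% lower and 3.29% higher, 2.03% in the Bod1L average, with 1.92% lower, and 0.694% in the Mll2 average. On the log2 scale the middle gene of the 47 stood at -0.37 in the Setd1a knockout, against 0.07 over all genes. Their medians were -0.02 in the Bod1L knockout (0.05 over all genes) and 0.01 in the Mll2 knockout (-0.02 over all genes). The count of 0 in the Mll2 average came from edgeR's quasi-likelihood test, and DESeq2 also called 0. In edgeR's test 0 of the 47 had an unadjusted p under 0.05, against 1980 of all 23501 genes. With libraries of the same line, medium and replicate number held as a block, 29 of the 47 genes were called lower in the Setd1a average (26% of all genes called, 11.7% lower), 3 in the Bod1L average (6.17% of all genes) and 0 in the Mll2 average (7.2% of all genes).

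**Figure D1:**
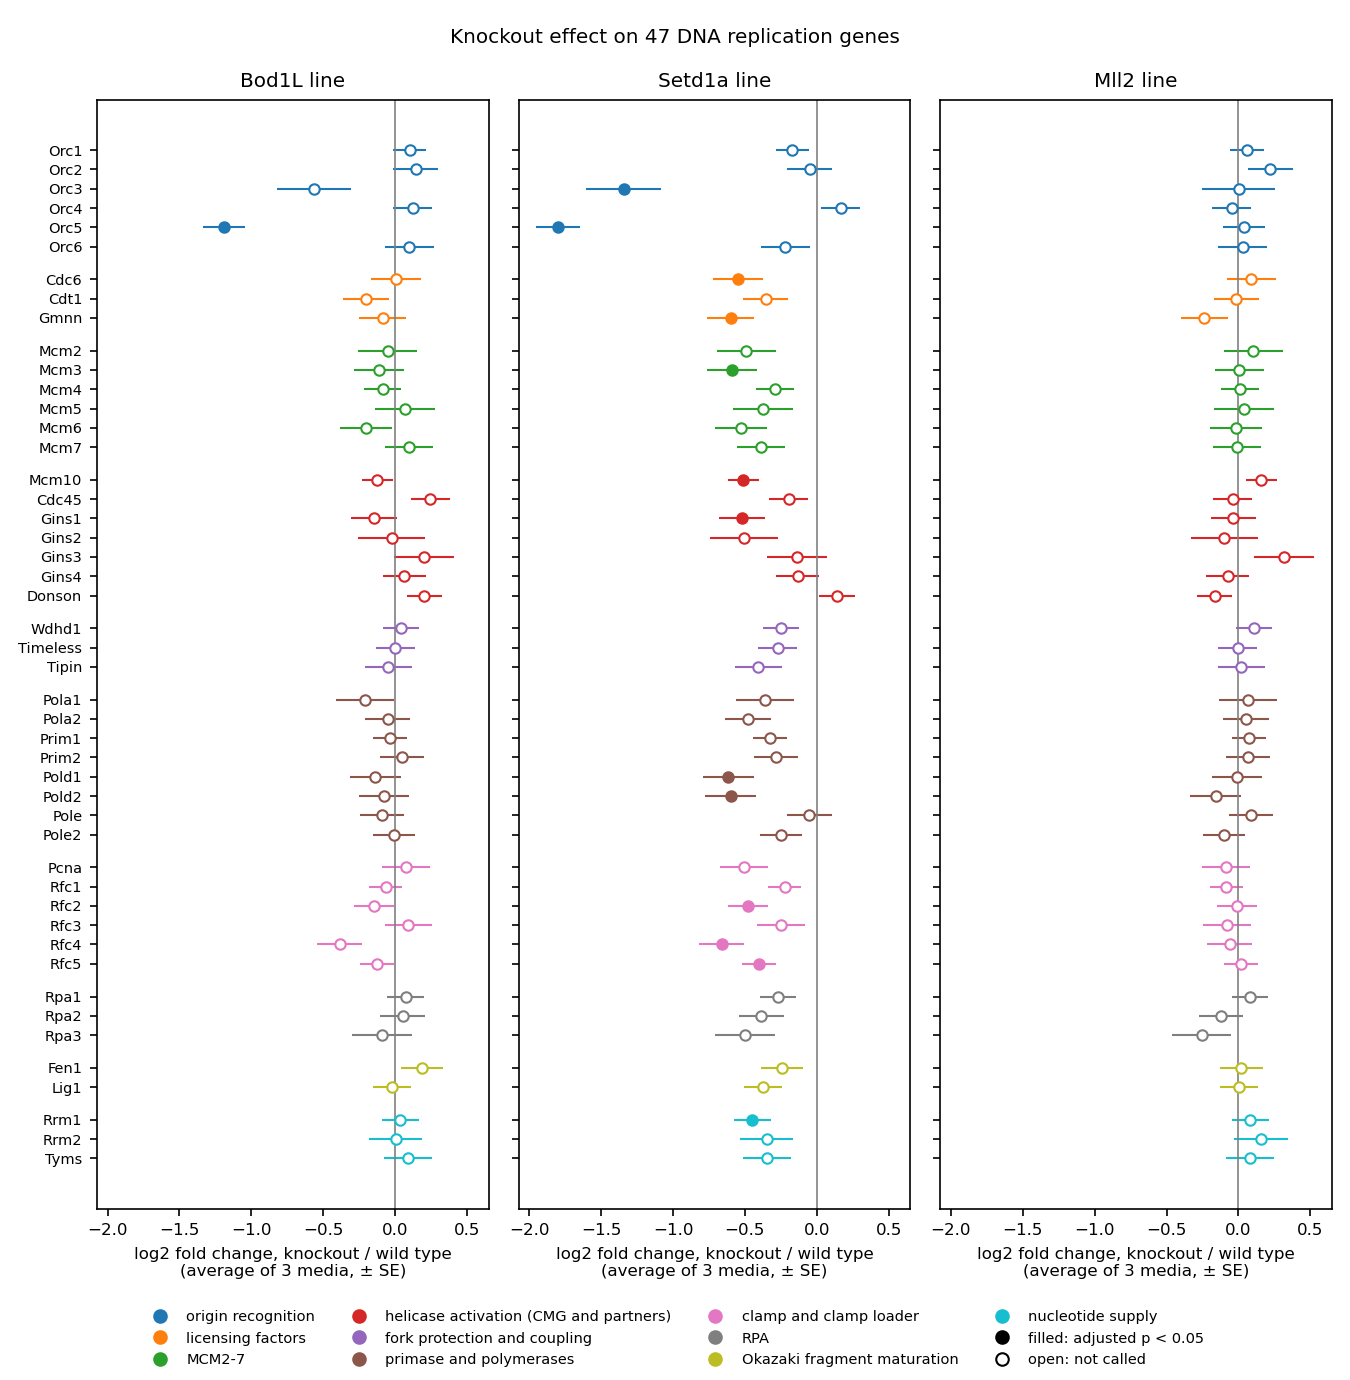
Log2 fold change of knockout over wild type (horizontal axis, average of 3 media) for each of the 47 replication genes, by line, with bars of 1 standard error, coloured by role; filled points have an adjusted p under 0.05. In the Setd1a line 45 of 47 points lie below 0 and Orc5 and Orc3 stand furthest left, while in the Mll2 line no point is filled.

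Orc5 (ENSMUSG00000029012, chr5:22486485-22550429, minus strand) encodes an ATPase-fold subunit of the origin recognition complex. In the Setd1a knockout its level in replicates 1 and 2 was 16.5 and 13.2 CPM in 2i, 21.8 and 24.7 CPM in FCS and 16.6 and 21.9 CPM in EpiSC. The matched wild type held 68.7 and 60.4 CPM in 2i, 83.3 and 55.5 CPM in FCS and 60.1 and 65.0 CPM in EpiSC. Every knockout library was below every wild-type library. The averaged log2 fold change was -1.80 ± 0.15 (SE, adjusted p = 2.46e-08), and the gene passed the test in each medium alone, at -2.12 in 2i, -1.58 in FCS and -1.70 in EpiSC. The FCS call was lost without knockout FCS replicate 1 (adjusted p = 0.0699).

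The Bod1L knockout showed a smaller loss of Orc5. Its knockout libraries held 30.0 and 17.1 CPM in 2i, 31.8 and 47.4 CPM in FCS and 29.0 and 24.7 CPM in EpiSC. The wild-type libraries of that line held 74.8 and 61.6 CPM in 2i, 74.5 and 84.2 CPM in FCS and 48.2 and 61.6 CPM in EpiSC. The groups did not overlap in any medium, although the highest knockout library, in FCS, lay just under the lowest wild-type library, in EpiSC. The averaged log2 fold change was -1.19 ± 0.15 (adjusted p = 1.95e-05). In single media Orc5 passed the test in 2i (-1.53 ± 0.26, adjusted p = 0.00662) and not in FCS, at 49.9% of wild type (adjusted p = 0.152), or EpiSC, at 48.9% (adjusted p = 0.0943), where the fit with the replicate block gave an adjusted p of 0.0118 and 0.0105. The 2i call was kept in 2 of 4 fits with 1 library left out, and was lost without knockout 2i replicate 2 (adjusted p = 0.446) or wild-type 2i replicate 1, and when only the libraries compared were fitted.

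In the Mll2 line Orc5 overlapped between genotypes. The knockout held 57.0 and 63.4 CPM in 2i, 80.1 and 95.5 CPM in FCS and 54.6 and 66.8 CPM in EpiSC, against 64.8 and 60.2, 79.4 and 80.3, and 56.9 and 61.9 CPM in the wild type. The difference between lines was itself tested. The knockout effect on Orc5 was 1.84 ± 0.21 log2 units lower in the Setd1a line than in the Mll2 line (adjusted p = 7.71e-06) and 1.23 ± 0.21 lower in the Bod1L line than in the Mll2 line (adjusted p = 0.00211). Between the Bod1L and Setd1a lines the effects differed by 0.61 ± 0.21, which did not pass (adjusted p = 0.911). These differences share libraries of each line. Over all 47 genes, 0 passed for Bod1L against Setd1a in edgeR's test (background 0.00426%), 1 for Bod1L against Mll2 (background 1.03%) and 3 for Setd1a against Mll2 (background 2.87%). Bod1L against Setd1a gave 10 of the 47 at an unadjusted p under 0.05, and 1204 of all 23501 genes. With the replicate block 0 were called for Bod1L against Setd1a (0.762% of all genes), 2 for Bod1L against Mll2 (5.57%) and 12 for Setd1a against Mll2 (14.1%). DESeq2 kept the calls of the genes named in these differences, which were Orc5 in both lines against Mll2, and Orc3 and Mcm10 for Setd1a against Mll2.

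Orc3 (ENSMUSG00000040044, chr4:34570796-34614944, minus strand), a structural subunit of the same complex, was the other origin recognition gene that fell without Setd1a. Its knockout libraries held 45.3 and 33.4 CPM in 2i, 96.7 and 43.6 CPM in FCS and 72.0 and 48.4 CPM in EpiSC. The wild-type libraries held 123 and 75.1 CPM in 2i, 275 and 77.3 CPM in FCS and 227 and 84.8 CPM in EpiSC. Replicate 1 was higher than replicate 2 in both genotypes and all 3 media, so that in FCS the knockout replicate 1 exceeded the wild-type replicate 2, while within each pair of equal number the knockout was lower. The averaged log2 fold change was -1.34 ± 0.26 (adjusted p = 0.00146), or 39.4% of wild type, and its difference from the Mll2 effect was -1.35 ± 0.36 (adjusted p = 0.0447), a difference that stayed called in 5 of 24 fits with 1 library left out (adjusted p up to 0.119).

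In the Bod1L line Orc3 had knockout libraries of 68.3 and 51.1 CPM in 2i, 43.8 and 62.2 CPM in FCS and 72.4 and 73.2 CPM in EpiSC. Its wild-type libraries held 114 and 81.5 CPM, 89.1 and 95.7 CPM, and 76.7 and 88.9 CPM. The knockout lay below the wild type in each medium, yet the averaged log2 fold change of -0.57 ± 0.26 did not pass (adjusted p = 0.534), and with the replicate block it did (adjusted p = 0.00439). Orc3 and Orc5 were the 2 genes of the 47 (2.81% of all genes) with both knockout libraries below both wild-type libraries in all 3 media of the Bod1L line. The same count was 12 in the Setd1a line (6.04% of all genes) and 0 in the Mll2 line (1.44% of all genes).

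**Figure D2:**
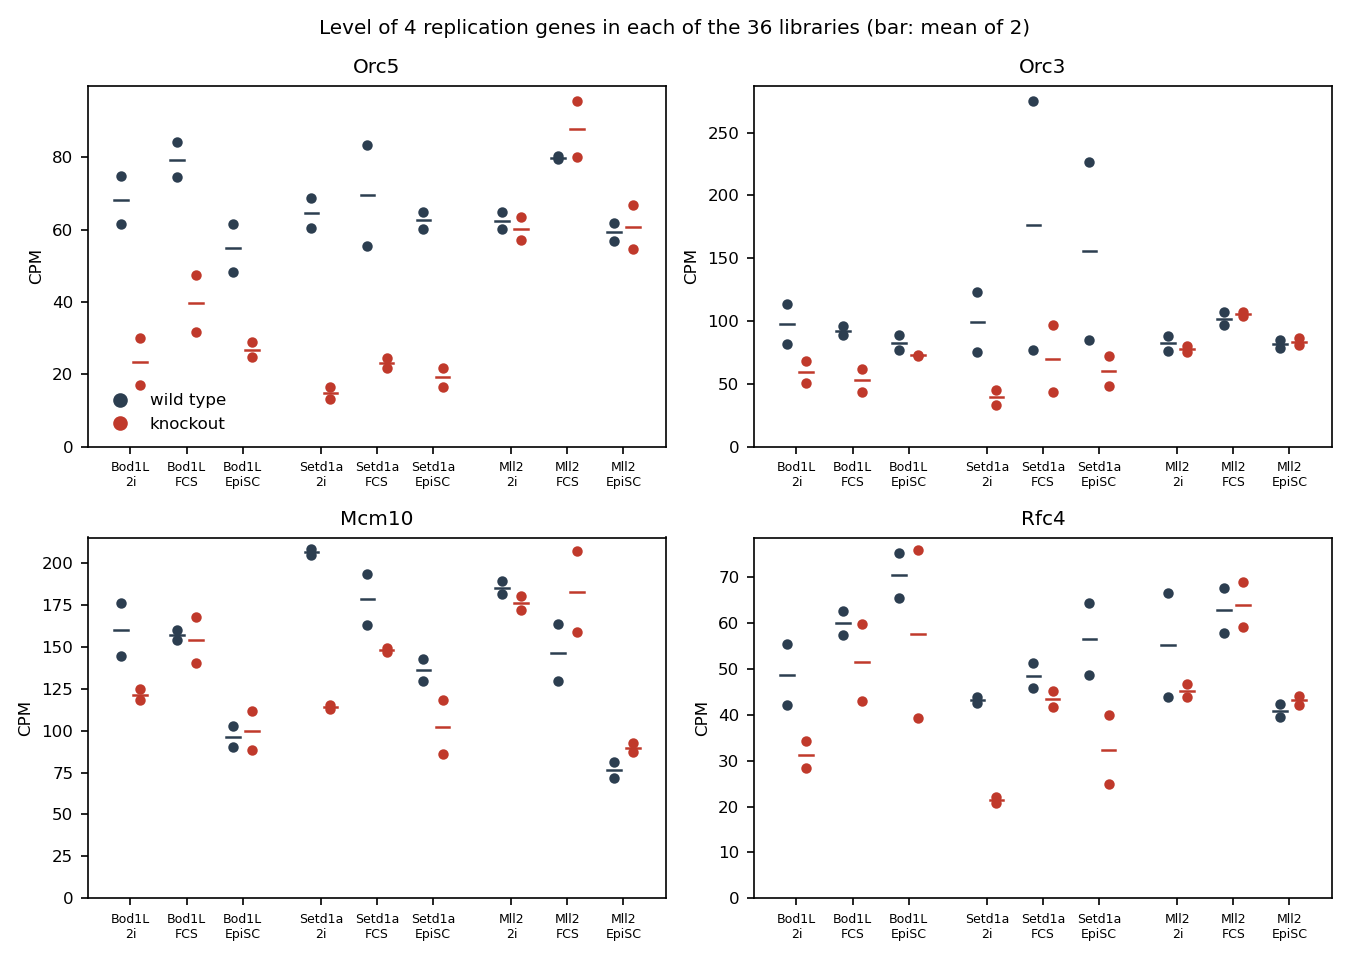
Level in CPM (vertical axis, from 0) of Orc5, Orc3, Mcm10 and Rfc4 in each of the 36 libraries, by line and medium, with wild type in dark blue, knockout in red and a bar at the mean of 2 libraries. Orc5 knockout points lie below wild-type points in the Bod1L and Setd1a lines and among them in the Mll2 line.

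The other 4 origin recognition genes did not pass in any knockout average. In the Setd1a knockout, Orc1, an ATPase subunit, had a log2 fold change of -0.17 and Orc4 of 0.17. The median over the 6 origin recognition genes there was -0.19, with Orc5 and Orc3 far from the rest.

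Among the licensing factors, 2 of 3 fell in the Setd1a knockout. Gmnn, the inhibitor of Cdt1, ran from 25.0 to 66.0 CPM (median 49.4) in the 6 knockout libraries and from 61.2 to 87.8 CPM (median 68.4) in wild type. The ranges overlapped only slightly, with a log2 fold change of -0.60 ± 0.16 (adjusted p = 0.0232). Cdc6, which loads the helicase, ran from 41.3 to 104 CPM against 48.5 to 158 CPM, with wide overlap (-0.55 ± 0.17, adjusted p = 0.0497). Cdt1 did not pass.

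Of the 6 MCM2-7 genes, 1 fell. Mcm3 ran from 148 to 366 CPM (median 267) in the Setd1a knockout and from 308 to 461 CPM (median 414) in wild type, with a log2 fold change of -0.59 ± 0.17 (adjusted p = 0.0351). The median over the 6 subunits was -0.44. With the replicate block Mcm2, Mcm5, Mcm6 and Mcm7 also passed, so that 5 of the 6 subunits were lower in that fit.

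Of the 7 helicase activation genes, Mcm10 and Gins1 fell. Mcm10 (ENSMUSG00000026669, chr2:4989714-5012791, minus strand) binds the loaded helicase and is needed for its activation. In the Setd1a knockout it held 113 and 115 CPM in 2i, 147 and 149 CPM in FCS and 86.1 and 118 CPM in EpiSC, against 208 and 205 CPM, 193 and 163 CPM, and 143 and 129.7 CPM in wild type. Both knockout libraries were below both wild-type libraries in each medium, with the widest gap in 2i. The averaged log2 fold change was -0.51 ± 0.11 (adjusted p = 0.0031), in 2i alone -0.86 ± 0.19 (adjusted p = 0.015), and the difference from the Mll2 effect was -0.67 ± 0.15 (adjusted p = 0.013), which did not pass with no filter on low counts (adjusted p = 0.125). The call in 2i alone was kept in 0 of 4 fits with 1 library left out (adjusted p 0.155 to 0.22), and was lost with no filter on low counts and when only the libraries compared were fitted. Gins1, a GINS subunit, ran from 15.0 to 34.3 CPM against 24.1 to 48.6 CPM (-0.52 ± 0.16, adjusted p = 0.0436). Donson, which helps to assemble the active helicase, had a log2 fold change of 0.14, and Donson and Orc4 were the only 2 of the 47 above 0.

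Among primase and polymerase genes, 2 of 8 fell, and both encode subunits of DNA polymerase delta. Pold1, the catalytic subunit, ran from 59.1 to 139.8 CPM in the Setd1a knockout and from 126 to 169.8 CPM in wild type (-0.62 ± 0.18, adjusted p = 0.03). Pold2, an accessory subunit, ran from 41.2 to 97.2 CPM against 61.7 to 133 CPM (-0.60 ± 0.18, adjusted p = 0.0359). Pole, the catalytic subunit of polymerase epsilon, did not pass.

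Among the clamp and clamp loader genes, 3 of 6 fell, and all 3 encode small subunits of replication factor C. Rfc4 (ENSMUSG00000022881, chr16:23113943-23127737, minus strand) held 20.9 and 22.0 CPM in 2i, 45.2 and 41.7 CPM in FCS and 24.9 and 39.9 CPM in EpiSC of the Setd1a knockout. Wild type held 42.7 and 44.0 CPM, 45.9 and 51.3 CPM, and 48.8 and 64.3 CPM. The groups did not overlap in any medium, with a wide gap in 2i and a narrow one in FCS, with an averaged log2 fold change of -0.66 ± 0.16 (adjusted p = 0.00865). Rfc2 ran from 45.7 to 79.8 CPM against 71.6 to 96.5 CPM (-0.48 ± 0.14, adjusted p = 0.0313). Rfc5 changed by -0.40 ± 0.12 (adjusted p = 0.0368), with -0.93 ± 0.21 in EpiSC alone (adjusted p = 0.0182) and 0.04 in 2i. The EpiSC call of Rfc5 was lost without knockout EpiSC replicate 1 (adjusted p = 0.294) or wild-type EpiSC replicate 2, and with no filter on low counts. Pcna ran from 131 to 259 CPM against 241 to 328 CPM and did not pass, while with the replicate block it did.

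Rrm1, the large subunit of ribonucleotide reductase, was the 1 of 3 nucleotide supply genes that fell, from a wild-type range of 197 to 265 CPM to 125 to 203 CPM (-0.45 ± 0.13, adjusted p = 0.0311). None of the 3 RPA genes, the 3 fork protection genes or the 2 Okazaki fragment genes passed in the Setd1a average, where their medians were -0.39, -0.27 and -0.31. All 3 RPA genes, which coat single-stranded DNA, had both knockout libraries below both wild-type libraries in each medium.

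The Setd1a count depended on single libraries, and the share of all genes called in each such fit is not given here. When 1 of the 12 libraries of the line was left out, the count of genes called lower ran from 4 to 22; it was 4 without knockout 2i replicate 1, wild-type 2i replicate 1 or knockout EpiSC replicate 1, and 22 without knockout EpiSC replicate 2. Orc5, Orc3, Mcm10 and Rfc4 stayed called in all 12 of these fits, and the other 9 genes in 1 to 6 of them. Orc3 was not called when only the libraries of the line were fitted (adjusted p = 0.0537). With 2i and FCS alone 3 genes were called (3.43% of all genes), and with both EpiSC libraries numbered 1 left out 4 were called (5.25% of all genes), with a median of -0.29. In knockout EpiSC replicate 1 the 47 genes took 0.348% of counts, fibroblast markers summed to 3920 CPM and mitochondrial transcripts took 6.27% of counts. In 2i the 47 genes took 0.539% and 0.519% of counts in the Setd1a knockout against 0.78% and 0.781% in wild type, and mitochondrial transcripts 7.32% and 7.71% against 4.11% and 3.43%. The part of fibroblast and mitochondrial RNA in the result was not tested beyond these fits.

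The size of the Setd1a effect on the 47 genes was set side by side for the 3 media. Their median log2 fold change was -0.51 in 2i (0.00 over all genes), -0.15 in FCS (0.05 over all genes) and -0.47 in EpiSC (0.08 over all genes), and 45, 39 and 44 of the 47 lay below 0. The genes called were Orc5 and Mcm10 in 2i (1.69% of all genes called, 1.44% lower), Orc5 in FCS (0.762%, 0.74% lower) and Orc5 and Rfc5 in EpiSC (1.54%, 1.4% lower), all of them lower. At an unadjusted p under 0.05 there were 21 genes in 2i, 2 in FCS and 17 in EpiSC. Over all 23501 genes there were 3057, 1543 and 2876. With the replicate block 16 genes were called in 2i (12.4% of all genes), 2 in FCS (3.91%) and 17 in EpiSC (11.9%). The effect of medium on the knockout effect was tested for each gene. None of the 47 passed in any line by edgeR's test (background 0%, 0% and 0.00426% in the Bod1L, Setd1a and Mll2 lines). At an unadjusted p under 0.05 there were 0, 2 and 1 of the 47, and 244, 471 and 798 of all 23501 genes. The Setd1a genes with an unadjusted p under 0.05 in that test were Pold2, at -0.87 in 2i, 0.15 in FCS and -1.07 in EpiSC, and Rfc5.

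In the Bod1L line the medians were -0.18 in 2i, 0.11 in FCS and 0.05 in EpiSC, with 1 gene called in 2i (0.374% of all genes, 0.366% lower) and 0 in FCS (0.191%) and EpiSC (0.438%). For the 2 counts of 0, edgeR gave 2 and 3 genes at an unadjusted p under 0.05 (1074 and 1146 of all 23501 genes). DESeq2 called Orc5 in both media. With the replicate block 1 gene was called in 2i (2.8% of all genes), 2 in FCS (1.66%) and 1 in EpiSC (2.19%). In the Mll2 line the medians were -0.23 in 2i, 0.10 in FCS and 0.17 in EpiSC, with 0 genes called in each (0.464%, 0% and 0% of all genes). edgeR gave 5, 0 and 0 of them at an unadjusted p under 0.05 (2414, 615 and 952 of all 23501 genes), and DESeq2 called 0 in each. The replicate block called Pcna and Rpa3 in 2i (6.96% of all genes) and 0 genes in FCS (0.825%) and EpiSC (2.16%).

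**Figure D3:**
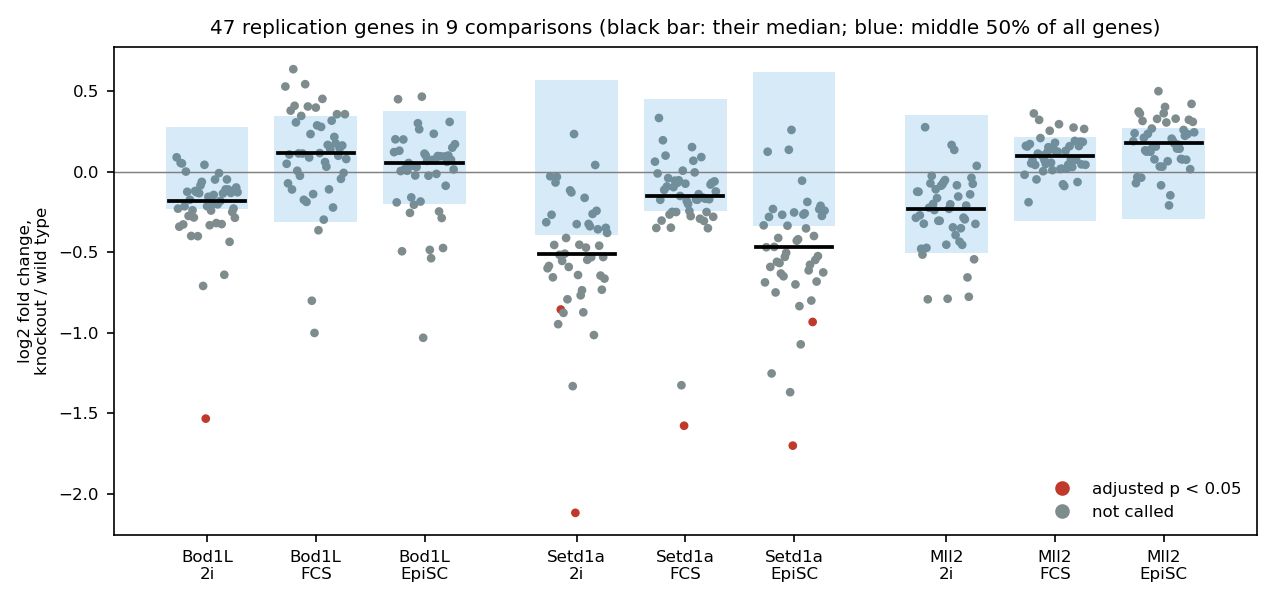
Log2 fold change of knockout over wild type (vertical axis) of the 47 replication genes in each of the 9 comparisons of line and medium; red points have an adjusted p under 0.05, black bars mark their median and blue boxes hold the middle 50% of all genes tested. The medians in the Setd1a line are -0.51 in 2i and -0.47 in EpiSC, below the blue boxes, and -0.15 in FCS.

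The Bod1L and Setd1a knockouts have separate wild-type controls. Of the 47 genes, 25 lay below 0 in both averages, and the Setd1a value was the lower for 45. After Orc5 the genes of smallest unadjusted p in the Bod1L average were Orc3 and Rfc4, the clamp loader subunit, at -0.38 ± 0.16 (adjusted p = 0.399). Rfc4 held 34.2 and 28.4 CPM in 2i of the Bod1L knockout against 55.4 and 42.2 CPM in wild type, 43.1 and 59.8 against 62.7 and 57.4 CPM in FCS, and 75.9 and 39.4 against 75.3 and 65.5 CPM in EpiSC. Its groups overlapped in FCS and EpiSC, and with the replicate block it passed at -0.41 (adjusted p = 0.0429). In the Mll2 average the smallest unadjusted p belonged to Gins3 (0.32 ± 0.21, adjusted p = 0.793), Mcm10 (0.16) and Gmnn (-0.24, adjusted p = 0.808).

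Several replication genes share their start region with a gene on the opposite strand. A neighbour that starts within 1000 bp on the opposite strand was annotated for 17 of the 47 genes, and in 9 pairs the neighbour reached 5 CPM in wild type. In 3 of those 9 pairs the neighbour fell in both the Bod1L and the Setd1a knockout, and in 0 in the Mll2 knockout. Over all genes tested 1.92%, 5.57% and 0.634% were called lower in the Bod1L, Setd1a and Mll2 averages. The 3 neighbours were Rars2, beside Orc3, Prkdc, beside Mcm4, and Smyd4, beside Rpa1. Rars2, the mitochondrial arginyl-tRNA synthetase, starts 13 bp from Orc3. It held 15.4 and 13.8 CPM in 2i of the Setd1a knockout against 48.8 and 34.0 CPM in wild type, 35.2 and 17.2 against 93.7 and 34.6 CPM in FCS, and 30.1 and 18.1 against 93.9 and 38.4 CPM in EpiSC. Replicate 1 was the higher one in both genotypes, as for Orc3. Its averaged log2 fold change was -1.42 ± 0.25 (adjusted p = 4.89e-04) in the Setd1a line and -1.15 ± 0.25 (adjusted p = 0.00797) in the Bod1L line.

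In the other 2 pairs the replication gene itself did not pass. Prkdc, the catalytic subunit of DNA-dependent protein kinase, starts 466 bp from Mcm4 and changed by -1.23 ± 0.21 (adjusted p = 7.69e-04) in the Bod1L and -0.81 ± 0.21 (adjusted p = 0.0141) in the Setd1a knockout, against -0.09 and -0.29 for Mcm4. Smyd4, a SET and MYND domain gene, starts 109 bp from Rpa1 and changed by -1.10 ± 0.19 and -1.20 ± 0.19 (adjusted p = 8.68e-04 and 1.49e-04), against 0.07 and -0.27 for Rpa1. Abhd12, 659 bp from Gins1, had fold changes of 0.40 and 0.33 that did not pass, while Gins1 fell in the Setd1a line. The difference within a pair was not tested. Orc5 has the noncoding neighbour 6030443J06Rik 3 bp away, which averaged 2.64 CPM in wild type and changed by -1.47 (adjusted p = 0.0153) in the Bod1L and -0.04 in the Setd1a knockout. The counting used strand, so reads of opposite strands were kept apart.

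**Figure D4:**
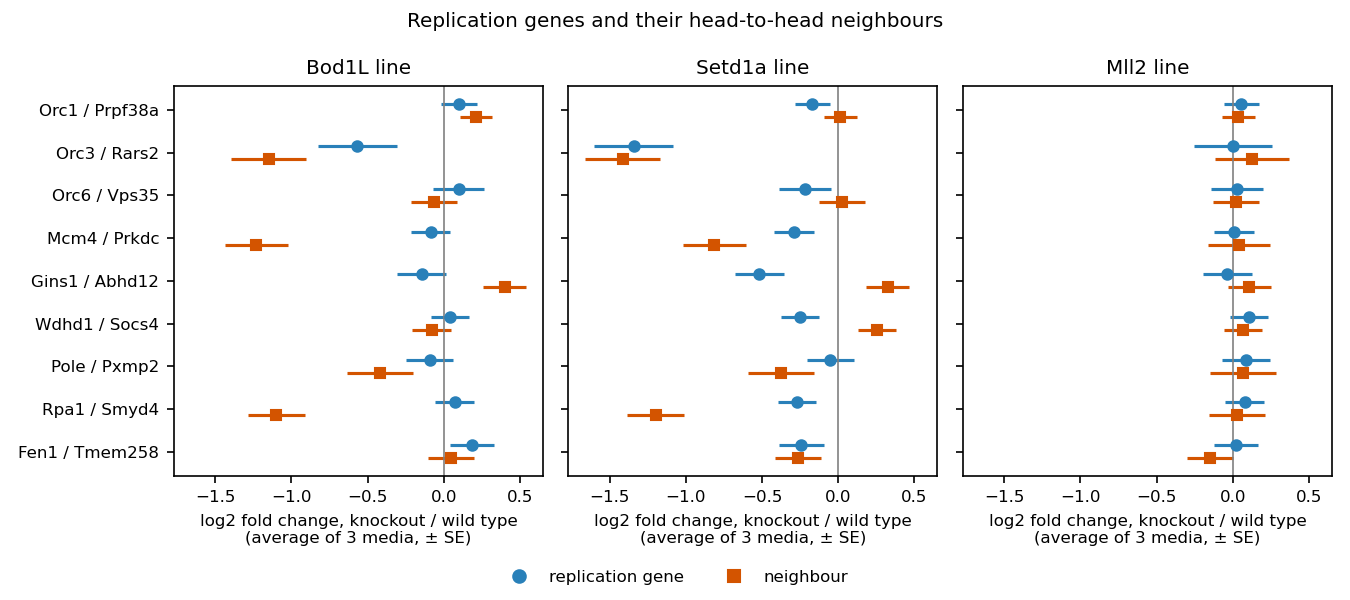
Log2 fold change of knockout over wild type (horizontal axis, average of 3 media) with bars of 1 standard error for 9 replication genes (blue circles) and the gene that starts within 1000 bp on the opposite strand (orange squares), by line. Rars2, Prkdc and Smyd4 lie between -1.42 and -0.81 in the Bod1L and Setd1a lines, and of the replication genes Orc3 lies furthest left in both.

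Genes around the core machinery were read from lists of related genes. The background was that of the averages above, 8.85% of all genes called without Setd1a (5.57% lower, 3.29% higher), 2.03% without Bod1L and 0.694% without Mll2, and with the replicate block 26% (11.7% lower), 6.17% and 7.2%. Of 37 other replication genes, 6 fell and 1 rose in the Setd1a knockout (median -0.25) and 1 fell in the Bod1L knockout. In the Mll2 knockout 0 passed by edgeR's test, with 4 at an unadjusted p under 0.05 (1980 of all 23501 genes). With the replicate block 15 fell and 2 rose without Setd1a, 2 fell and 1 rose without Bod1L, and 2 fell and 2 rose without Mll2. Mcm8, a helicase of homologous recombination related to MCM2-7, fell in both lines, to 18.5% of wild type without Setd1a (-2.44 ± 0.18, adjusted p = 6.47e-09) and to 31.9% without Bod1L (-1.65 ± 0.18, adjusted p = 4.25e-06). The others that fell were Topbp1, which acts in helicase activation and checkpoint signalling (-0.71), the chromatin assembly gene Chaf1b (-0.67), the ribonuclease subunit Rnaseh2b (-0.63), the polymerase delta subunit Pold3 (-0.52) and the checkpoint mediator Clspn (-0.44), while the helicase Recql4 rose (0.62, adjusted p = 0.00437). Of 12 other nucleotide supply genes 1 fell without Setd1a, thymidine kinase Tk1 (-0.71, adjusted p = 0.0293), and 7 fell with the block. Of 27 genes of the G1 to S transition, E2f1 (-0.57), Tfdp1 (-0.56) and Cdc25a (-0.54) fell and the cyclin Ccnd2 rose (1.62, edgeR adjusted p = 0.011). Over the 3 media Ccnd2 varied widely, at 165 ± 275 CPM (SD, n = 6) in knockout and 51.6 ± 67.8 CPM in wild type. The median of the 27 was -0.19, and with the block 9 fell and 3 rose. Calls in these other lists were not examined with 1 library left out. Of 17 genes of G2 and mitosis the cyclin Ccnb2 fell (-1.10, adjusted p = 1.29e-04), with a median of -0.15, and 4 fell with the block. The single calls among the nucleotide supply and the G2 and mitosis genes are shares near the background. In the Bod1L and Mll2 knockouts 0 genes of these last 3 lists passed by edgeR's test, with 0 or 1 per list at an unadjusted p under 0.05.

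The replication genes were mostly lower in EpiSC medium than in the other media. In wild-type cells, averaged over the 3 lines, 35 of the 47 genes were lower in EpiSC medium than in 2i and none was higher, against 52.5% of all genes called and 27.4% lower. Against FCS, 27 were lower in EpiSC and 1 was higher (41% of all genes called, 20.6% lower and 20.4% higher). Between 2i and FCS, 6 were higher in 2i (27.8% of all genes called, 14.5% higher). The 3 comparisons share libraries of each medium. In the header of the count table all 12 EpiSC libraries carry numbers of a second, higher series, with 13 libraries in all and Setd1a knockout 2i replicate 1 as the other one. What the series marks is not stated, and it and the medium cannot be told apart. Fibroblast marker genes moved with the same comparison, and 6 of 6 were higher in EpiSC than in 2i. In Mll2 wild type their sum was 5.07 and 3.98 CPM in 2i and 82.4 and 103 CPM in EpiSC. In that line alone 32 of the 47 genes were lower in EpiSC. The part of fibroblast RNA in the difference between media was not tested.

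By role, the fall from 2i to EpiSC took in all 3 licensing factors, all 6 MCM2-7 genes, all 3 fork protection genes, all 3 RPA genes and both Okazaki fragment genes. It took in 5 of 7 helicase activation genes, 5 of 8 primase and polymerase genes, 3 of 6 clamp and loader genes, 3 of 6 origin recognition genes and 2 of 3 nucleotide supply genes. The median log2 difference over the 47 genes was -0.65, against -0.07 over all genes, and it was -0.45 against -0.01 for EpiSC minus FCS. The MCM2-7 differences from 2i ran from -0.92 (Mcm2) to -0.42 (Mcm7). The Rpa3 call (-0.51) was lost with RLE size factors and with no filter on low counts. Its difference ran from -0.64 to -0.33 with 1 library left out.

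Gins1 had the largest difference. It ran from 39.1 to 86.9 CPM (median 48.8, n = 6) in 2i, from 33.0 to 47.4 CPM (median 39.3) in FCS and from 13.8 to 29.5 CPM (median 20.2) in EpiSC. The EpiSC range lay below both others, with a log2 difference from 2i of -1.41 ± 0.16 (adjusted p = 2.59e-07). Orc1 ran from 88.3 to 102 CPM (median 93.9) in 2i, from 73.3 to 115 CPM (median 92.0) in FCS and from 29.7 to 62.2 CPM (median 35.2) in EpiSC. Orc1 in EpiSC did not overlap with the other media either (-1.30 ± 0.12, adjusted p = 1.10e-08 against 2i, and -1.28 against FCS).

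Rpa2 and Rpa1, subunits of the single-strand binding complex, followed with -1.22 ± 0.16 and -1.19 ± 0.13. Rpa2 ran from 100.2 to 239.8 CPM in 2i and from 45.9 to 81.8 CPM in EpiSC without overlap, and Rpa1 from 311 to 564 CPM and from 109 to 306 CPM. Pola1, the catalytic subunit of polymerase alpha, was the fifth at -1.11 ± 0.20 (adjusted p = 8.99e-05). The smallest differences that passed were those of Gins4 and Prim2 (-0.48 each), Rfc1 and Timeless (-0.43 each) and Mcm7 (-0.42). Mcm7 stayed called in 3 of 12 fits with 1 library left out (adjusted p up to 0.134). Orc5 and Orc3 did not pass against 2i (-0.14 and 0.14). Orc5 passed against FCS, a call kept in 2 of 12 fits with 1 library left out (adjusted p up to 0.196) and lost with no filter on low counts.

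Against FCS, Tipin, a fork protection gene, ran from 133 to 191 CPM in FCS and from 62.2 to 95.8 CPM in EpiSC (-1.13 ± 0.17, adjusted p = 1.55e-05). Orc2 (-1.01), Rpa2 (-1.02) and Gins1 (-0.98) were lower too. Gins2 was the 1 gene higher in EpiSC, at 39.5 to 94.0 CPM (median 49.5) against 28.3 to 44.8 CPM (median 35.2), ranges that overlapped (0.65 ± 0.23, adjusted p = 0.0297), and the call was kept in 5 of 12 fits with 1 library left out (adjusted p up to 0.155). In 22 of the 47 genes all 6 EpiSC libraries lay below all 6 of 2i (9.71% of all genes), and in 11 below all 6 of FCS (6.23% of all genes). Fewer of the 47 were called against FCS in the Bod1L and Setd1a lines alone, as given below.

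Between 2i and FCS the 6 calls were a smaller share of the 47 genes than the 27.8% called over all genes. Fewer were called in the Bod1L and Setd1a lines alone, as given below. The gene of largest difference was Cdc45, a helicase component. It ran from 55.3 to 98.9 CPM (median 76.8) in 2i and from 39.4 to 48.3 CPM (median 45.5) in FCS, without overlap (0.79 ± 0.14, adjusted p = 1.50e-04). Lig1, the ligase that joins Okazaki fragments, ran from 304 to 497 CPM against 227 to 261 CPM, also without overlap (0.54 ± 0.13, adjusted p = 0.00349). Tyms, thymidylate synthase, differed by 0.60 ± 0.17 (adjusted p = 0.00895) with overlapping ranges, and Gins1 (0.43), Donson (0.36) and Rpa1 (0.34) by less. With 1 of 12 libraries left out the calls of Gins1, Donson and Rpa1 were kept in 3, 4 and 1 of the fits. Genes with all 6 libraries of 2i above all 6 of FCS numbered 3, which were Cdc45, Lig1 and the polymerase epsilon subunit Pole2. This is a share near that of all genes (5.17%).

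The fall from 2i to EpiSC was seen in each wild-type line, to different degrees. In the Mll2 line 32 genes were lower (38.9% of all genes called, 20.9% lower) with a median of -0.91. The Bod1L line had 24 lower and 1 higher (31.8%, 16.5% lower and 15.2% higher) with a median of -0.73. The Setd1a line had 6 lower (12.9%, 5.6% lower) with a median of -0.28. Over knockout and wild-type libraries together, the summed level of naive-state marker genes in EpiSC medium was 682 to 871 CPM in the Setd1a line. It was 107 to 318 CPM in the other lines. Pcna stood at -1.37 in the Mll2, -0.56 in the Bod1L and -0.02 in the Setd1a line, and Gins1 at -2.27, -1.14 and -0.83. Mll2 wild-type 2i replicate 2 held 19007 raw counts of Pcna and 2820 of Gins1, against 11291 and 1704 in replicate 1. That replicate 2 had the lowest scaling factor of the 2i libraries, 0.837. The fits within a line were not repeated without it. The gene higher in the Bod1L line was Pold2 (0.97, adjusted p = 0.0195). The difference between lines in this step was not tested.

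**Figure D5:**
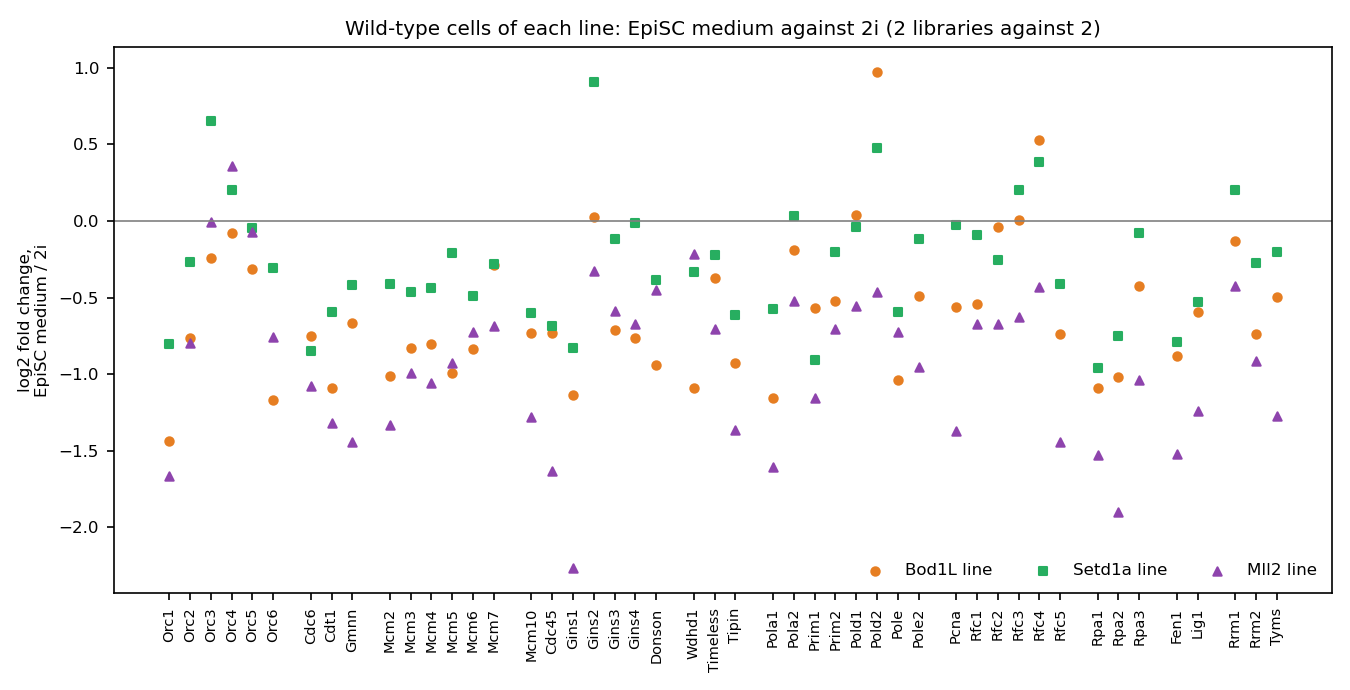
Log2 difference of EpiSC medium from 2i (vertical axis) in wild-type cells for each of the 47 replication genes, ordered by role, with 1 symbol per line. Purple triangles of the Mll2 line lie lowest for most genes (median -0.91) and green squares of the Setd1a line nearest to 0 (median -0.28).

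Among the wild-type lines, 3 of the 47 genes differed between Setd1a and Bod1L (12.3% of all genes called, 7.65% higher in Setd1a). Between Setd1a and Mll2, 3 differed (6.39%, 4.31% higher in Setd1a), and both comparisons share the Setd1a libraries. The first count is a share below that of all genes called, and the second is near it. Cdc6 was higher in the Setd1a line by 0.93 ± 0.17 (adjusted p = 0.00103) and 0.75 (adjusted p = 0.0122), Rpa1 by 0.63 and 0.82, and Mcm10 by 0.35 and 0.42. The Mcm10 calls were kept in 4 and 6 of 12 fits with 1 library left out. Cdc6 and Rpa1 lie on chromosome 11, where the median difference over 1132 genes was 0.39 and 0.41, against -0.02 and -0.03 on chromosome 2, which carries Mcm10. The part of this chromosome-wide difference in the result was not tested. Between the Mll2 and Bod1L lines edgeR called 0 of the 47 (4.65% of all genes), with 0 at an unadjusted p under 0.05 (3930 of all 23501 genes).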

How the data were processed

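Poly(A)-selected RNA of 36 libraries (3 lines, knockout and wild type, 3 media, 2 libraries per group) was sequenced. The values are raw counts per gene that the authors deposited: per the submitters' processing notes reads were aligned with GSNAP 2017-03-17 to GRCm38/mm10, and per the file headers they were counted with featureCounts 1.5.2 on Ensembl 87, by strand, with primary alignments only and a minimum mapping quality of 1. The 92 spike-in lines held 0 counts and were left out of library sizes. Symbols came from a table by Ensembl identifier (345 genes had none).

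From the counts, edgeR 4.0.16 in R 4.3.3 fitted 1 quasi-likelihood model of 18 groups to all 36 libraries (TMM scaling, filterByExpr with a minimum count of 10, 23501 genes, 18 residual degrees of freedom). Called means a Benjamini-Hochberg adjusted p under 0.05 over all genes tested. CPM are TMM-scaled, and errors of fold changes are standard errors derived from the F statistic. An average over media or lines weights each equally. The code was tested on simulated counts.

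The 47 genes, the other gene lists and the tests were chosen with earlier results of these data known. Genes were named where they were called in a knockout comparison, stood among the 5 called genes with the highest or lowest fold change between media or lines, had the smallest p where fewer than 3 were called, stood at either end of the levels, or neighboured a called gene head to head; neighbours reaching 5 CPM, Orc1 and Mcm6 as sequences, and genes that illustrate a group were added after their values were seen.

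Replicate deviations of knockout libraries were correlated with those of same-numbered wild-type libraries. The correlation was 0.401 to 0.848 over 12244 genes in the 9 combinations of line and medium, so the numbers were taken to pair the libraries. The pairing comes from the data, since the labels give a number only. Over the 47 genes alone the correlation was -0.046 in Mll2 2i, 0.228 in Setd1a FCS and up to 0.913 elsewhere. In Mll2 2i the 47 genes thus showed no such pairing, which limits the block there. The replicate block (18 pairs, 9 residual degrees of freedom), DESeq2 1.42.0, RLE size factors, no filter on low counts, a fit of the compared libraries only and leaving out each library were the alternatives. Averages without EpiSC medium, without both Setd1a EpiSC libraries numbered 1, and media within each line were added after seeing the data.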

Additional observations from a re-analysis of the deposited data

Results flagged for a closer look

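The knockout effect of 3 genes differed between lines by a test of the difference. For Orc5 the effect in the Bod1L line minus that in the Mll2 line was -1.23 on the log2 scale, and in the Setd1a line minus the Mll2 line it was -1.84. For Orc3 the Setd1a minus Mll2 difference was -1.35, and for Mcm10 it was -0.67. The Mll2 libraries are shared by these differences. When 1 library was left out, Orc5 and Mcm10 kept their call in all 24 fits and Orc3 in 5 of 24.

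In wild-type cells, 54 groups of 6 libraries (18 named genes in 3 media) were searched for 1 library far from the rest, and 9 were found, where chance alone flags about 1 in 20 groups. The 6 libraries of a group come from 3 lines, so line and library cannot be told apart in them. In 2i, Mll2 wild-type replicate 2 was the highest for Gins1 (86.9 CPM) and Rpa2 (240 CPM), and this library had the lowest scaling factor of the 2i libraries, 0.837. Also in 2i, Bod1L wild-type replicate 2 was apart for Pola1 (210.5 CPM) and Setd1a wild-type replicate 1 for Orc2 (158 CPM). In FCS, Mll2 wild-type replicate 1 was apart for Pola1 (242 CPM) and Prim2 (67.6 CPM), Bod1L wild-type replicate 2 for Gins4 (79.8 CPM) and Setd1a wild-type replicate 2 for Orc5 (55.5 CPM). In EpiSC, Setd1a wild-type replicate 1 was apart for Tipin (95.8 CPM).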

How the results depend on the processing

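Counts of replication genes called were compared across settings, and where a count moved by over 1.5 times the cause was not tested. Shares of all genes called are not given here for RLE size factors, DESeq2, no filter, the compared libraries only or 1 library left out. In the Setd1a average (13), RLE size factors gave 8, the replicate block 29, 2i and FCS alone 3 and both EpiSC libraries numbered 1 left out 4. In Setd1a 2i (2), the replicate block gave 16 and the compared libraries only 1; in FCS (1), no filter and the block gave 2 each; in EpiSC (2), no filter gave 4 and the block 17. In Bod1L 2i (1) the compared libraries only gave 0, in FCS (0) the block gave 2 and DESeq2 1, in EpiSC (0) the block and DESeq2 gave 1 each, and in the average (1) the block gave 3. In Mll2 2i (0) the block gave 2. The difference Bod1L minus Mll2 (1) gave 2 with the block, and Setd1a minus Mll2 (3) gave 12. Between wild-type media, 2i minus FCS (6) gave 3 with no filter. It gave 0 in the Bod1L line alone (11.4% of all genes called) and 1 in the Setd1a line alone (6.21%). EpiSC minus 2i (35) gave 6 in the Setd1a line alone (12.9%). EpiSC minus FCS (28) gave 13 in the Bod1L line alone (21.7%) and 0 in the Setd1a line alone (2.83%).

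With 1 library left out, counts ran from 0 to 1 in Bod1L 2i, 1 to 2 in the Bod1L average, 1 to 1 in Setd1a 2i, 0 to 2 in FCS, 1 to 4 in EpiSC and 4 to 22 in the Setd1a average. They ran from 0 to 4 in Mll2 2i (4 without wild-type 2i replicate 1), 2 to 4 for Setd1a minus Mll2, 3 to 7 for 2i minus FCS, 33 to 36 for EpiSC minus 2i, 20 to 26 for EpiSC minus FCS, 2 to 5 for wild-type Setd1a minus Bod1L and 1 to 5 for Setd1a minus Mll2. The reversal seen was that of Gmnn in the Mll2 average, at 0.0016 without Mll2 wild-type 2i replicate 2, where leaving out replicate 1 instead gave -0.40. Scaling by RLE shifted the median of all genes by at most 0.088. No other call of a single-medium count or average changed with the replicate block by over 1.5 times.

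Limits: 2 libraries per group leave the spread to be shared over 18 groups, and single-medium tests detect large changes only. Medium and library number series, and deletion and tamoxifen, cannot be told apart. The transcripts Setd1a and Kmt2b do not check their own knockouts. Counting error was small at these depths.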
